A study of Caenorhabditis elegans with 4 samples.

Results

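The regions described here are the binding peaks of the transcription factor PEB-1 on chromosome V of Caenorhabditis elegans. They are all lines of the combined peak list placed on chromosome V, 284 of 1854 peaks in all, chosen by chromosome alone. Whether a peak was also found in a replicate was read from its overlap, by at least 1 bp, with the peaks of the 2 ChIP replicate lists on V, which hold 167 and 28 peaks. The 1 replicate 2 peak wider than 100000 bp was left out of that comparison, which leaves 27.

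Through a FLYWCH-type zinc finger the PEB-1 protein contacts DNA, and it is best known from the pharynx, the muscular feeding organ of the worm, where it binds a regulatory element of the pharyngeal muscle myosin gene myo-2. In chromatin immunoprecipitation and sequencing (ChIP-seq), DNA crosslinked to a protein is recovered with an antibody, and a peak is a stretch where its reads exceed those of a control. Chromosome V is an autosome and the longest chromosome of the worm. The arms of worm autosomes recombine often and are rich in repeats and in rapidly evolving genes, while the centres recombine rarely and hold a larger share of conserved genes. Chromosome V is also known for its many chemoreceptor genes.

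All 4 libraries come from hermaphrodites of strain OP86 at the L2 larval stage, grown at 20 °C, with the unc119(ed3) mutation and the transgene wgIs86, whose construct the labels write as peb-1::TY1 EGFP FLAG;unc119. They are 2 anti-GFP ChIP libraries and 2 inputs (total chromatin kept before the antibody step), and both kinds carry the same alleles. The transgene was introduced by bombardment and also carries a rescuing unc-119 copy, so the GFP-tagged protein comes from that construct. Chromatin came from whole larvae, so the tissues that contribute to a peak cannot be told apart. The inputs have no peak list here. Whether each replicate was grown as its own culture is not stated in the labels. How many reads stand behind the lists is unknown, and absence from a list may only mean that a peak was not detectable at its depth. Positions are on WormBase build WS220, and each peak carries the authors' q-value (the p-value of its enrichment corrected for multiple tests), given below also as −log10 q, which grows with the evidence for the peak and also with depth. No WS220 genome or annotation was used, so no peak is assigned to a gene and no sequence is printed.

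The peaks on V were small and spread over nearly the whole chromosome. The first combined peak began at position 8915 and the last ended at 20905816, on a span of 20924161 bp that was taken to end at the last peak of any list. Together the 284 peaks covered 51.6 kb, or 0.247% of that span. The 167 replicate 1 peaks covered 36.5 kb and the 27 replicate 2 peaks 4.25 kb. The density was 13.6 combined peaks per Mb on V, 7.98 in replicate 1 and 1.29 in replicate 2.

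Counted in 1 Mb bins by their midpoints, combined peaks were present in each of the 21 bins, but unevenly. The count per bin ran from 2 to 29, with a median of 14. The fullest bin lay from 6000001 to 7000000, almost wholly left of the central 33.3% of the span, with 29 combined peaks, 10.2% of the members. The same bin was the fullest in replicate 1, with 19 peaks, and in replicate 2, with 7. Next came the neighbouring bins from 12000001 to 14000000, with 24 combined peaks each, and the bin from 14000001 to 15000000, with 20. These 3 bins together held 68 combined, 46 replicate 1 and 8 replicate 2 peaks.

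The 5 emptiest bins lay on the arms. The bin from 17000001 to 18000000 held 2 combined peaks, that from 2000001 to 3000000 held 3, and those from 1 to 1000000, 3000001 to 4000000 and 16000001 to 17000000 held 6 each. From 15000001 to 18000000 there were 17 combined peaks, 12 replicate 1 peaks and no replicate 2 peak. Replicate 1 had at least 2 peaks in each of the 21 bins, whereas 10 bins held no replicate 2 peak. The stretch from 5000001 to 15000000, which is 47.6% of the bins, held 185 combined peaks (65.1%), 124 replicate 1 peaks (74.3%) and 25 replicate 2 peaks (92.6%). Its limits were not set before the counts were seen, and it is a stretch where peaks were frequent, so these shares are only a description.

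**Figure D1:**
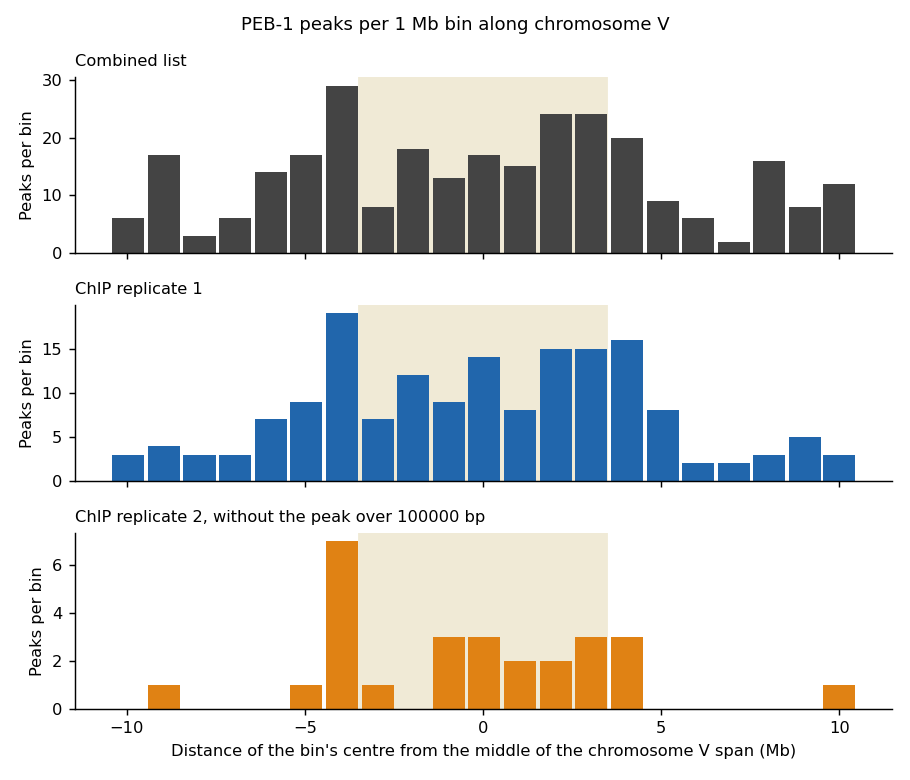
Peaks per 1 Mb bin (vertical axis) along chromosome V in the combined list, ChIP replicate 1 and ChIP replicate 2, each with its own scale. The horizontal axis is the distance of the bin's centre from the middle of the span in Mb, and the shaded band is the central 33.3% of the span. The tallest bar of all 3 lists is the same bin just left of the band, with 29, 19 and 7 peaks.

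A pair of arm bins had combined counts somewhat above the median of 14, while few of their peaks overlapped replicate 1. From 1000001 to 2000000 there were 17 combined peaks, of which 4 overlapped replicate 1 (23.5%). From 18000001 to 19000000 there were 16, of which 2 overlapped replicate 1 (12.5%). In these bins replicate 1 had 4 and 3 peaks of its own, and replicate 2 had 1 and 0. These 2 bins were singled out after their counts were seen. A low share in replicate 1 was not particular to them. It was 16.7% of 6 combined peaks from 16000001 to 17000000, and 25% of 8 from 19000001 to 20000000. In the last bin, from 20000001 on, it was 25% of 12.

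Arms were then set against the centre. Peaks on V were more frequent in the central 33.3% of the span, from 6974720 to 13949441, than on the arms. It held 119 of the 284 combined peaks (41.9%, 95% exact interval 36.1 to 47.9; two-sided exact binomial test against 33.3%, p = 0.00302, adjusted p = 0.00453 over the 3 lists). In replicate 1 it held 80 of 167 peaks (47.9%, interval 40.1 to 55.8, exact p = 0.000103, adjusted p = 0.000310). In replicate 2 it held 14 of 27 (51.9%, interval 31.9 to 71.3, exact p = 0.0635, adjusted p = 0.0635), which did not pass. The intervals hold counting error of peak numbers and nothing else. The tests treat peaks as independent although neighbours can belong to 1 enriched stretch, which makes the p-values too small. With combined peaks within 1000 bp merged, the centre held 106 of 259 regions (40.9%, interval 34.9 to 47.2). The exact binomial p was then 0.0121 and the adjusted p 0.0181.

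The arms were not alike in number. The left arm held 92 combined peaks (32.4%, interval 27.0 to 38.2), or 13.2 per Mb, against 17.1 per Mb in the centre. The right arm held 73 (25.7%, interval 20.7 to 31.2), or 10.5 per Mb. In replicate 1 the left arm, centre and right arm held 48, 80 and 39 peaks, and in replicate 2 they held 9, 14 and 4. All 3 lists thus had their lowest count on the right arm, although the difference between the arms was not tested.

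In the combined list the median width was higher in the centre, at 187 bp, than on the arms. It was 97 bp on the left arm and 114 bp on the right arm. For left arm, centre and right arm it was 181.5, 198 and 194 bp in replicate 1. In replicate 2, with 9, 14 and 4 peaks, it was 179, 62 and 31 bp. Peaks under 50 bp made up 16.8% of the central combined peaks (20 of 119). Their share was 32.6% on the left arm (30 of 92) and 31.5% on the right arm (23 of 73). In replicate 1 the shares on left arm, centre and right arm were 20.8%, 11.25% and 23.1%. In replicate 2 they were 22.2%, 42.9% and 75%. The median −log10 q of the combined peaks was 3.41 in the centre, 3.14 on the left arm and 3.10 on the right arm. For left arm, centre and right arm it was 2.88, 2.90 and 2.40 in replicate 1, and 2.56, 2.45 and 2.19 in replicate 2. The order of the combined list thus did not hold in replicate 2. These values are a description, since peaks of 1 list are not replicates.

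V was compared with chromosomes II, III and IV, the autosomes most like it in peak number, in 12 comparisons adjusted together. The density on V was 0.73 times that on II (18.5 per Mb; 95% interval of the ratio 0.62 to 0.87, two-sided exact binomial test, adjusted p = 0.00127). It was 0.72 times that on III (18.9 per Mb; interval 0.60 to 0.85, adjusted exact p = 0.00127). Against IV (14.03 per Mb) the ratio was 0.97 (interval 0.81 to 1.15, adjusted exact p = 0.844), so no difference passed, and with only the stronger 50% of the combined list it was 1.15 (interval 0.88 to 1.51, adjusted exact p = 0.471). In the replicate 2 list alone neither the ratio to II (0.86, interval 0.47 to 1.56) nor that to III (0.85, interval 0.46 to 1.58) passed, with an adjusted exact p of 0.888 for each. With only the stronger 50% of the combined list the ratio to II was 0.75 (adjusted exact p = 0.0845).

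The central share on V was 1.27 percentage points above that on II (40.6%; interval of the difference −6.80 to 9.31; adjusted p = 0.844 by a Fisher's exact test, two-sided) and 5.17 points above that on IV (36.7%; interval −3.18 to 13.4, adjusted exact p = 0.493). It was 10.1 points above that on III (31.8%; interval 1.986 to 17.999), which did not pass after adjustment (adjusted exact p = 0.0662). Of 5 alternatives for each of III and IV, only 1 passed. Merging peaks within 1000 bp gave 11.2 points against III (adjusted exact p = 0.0463), but replicate 1 alone gave 7.23 (adjusted exact p = 0.386). Replicate 1 alone gave 14.2 points against IV (adjusted exact p = 0.0403), but merging gave 3.69 (adjusted exact p = 0.649). The difference from II was 4.62 points in replicate 1 alone (interval −5.54 to 14.7) and 30.1 in replicate 2 alone (interval 3.17 to 51.3, exact p = 0.0417, adjusted exact p = 0.167), which did not pass either. Peaks under 50 bp made up 25.7% on V, 22.6% on II, 24.9% on III and 24.1% on IV. The difference was 3.09 points against II (interval −3.96 to 10.1), 0.80 against III (interval −6.52 to 8.05) and 1.62 against IV (interval −5.81 to 8.92), and none passed, with adjusted Fisher's exact p-values of 0.649, 0.844 and 0.844. None passed in a single replicate list either, where the value against II was −1.14 points in replicate 1 and 5.96 in replicate 2, and that against III 1.51 and 21.7 points. Against IV it was 4.50 and 7.41 points.

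**Figure D2:**
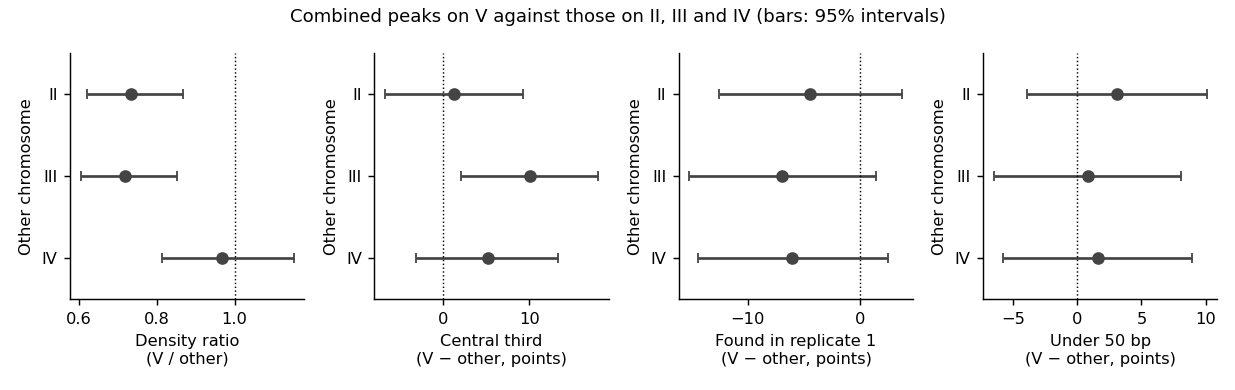
Combined peaks on V against those on II, III and IV: the ratio of peaks per Mb and the differences, in percentage points, in the share in the central 33.3% of the span, the share found in replicate 1 and the share under 50 bp. Points are the values and bars their 95% intervals. The density ratios to II (0.73) and III (0.72) lie below 1, and that to IV (0.97) has an interval that holds 1.

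Replicate support on V was close to that of the whole list. Of the 284 peaks, 137 overlapped replicate 1 (48.2%, interval 42.3 to 54.2), against 48.1% of all combined peaks. That share of all peaks includes chromosome I, where it was 33.7% of 401. On II, III, IV and X it was 52.7%, 55.2%, 54.3% and 50.8%, each above the share on V. Replicate 2 was overlapped by 21 (7.39%, interval 4.64 to 11.1), against 6.9% of all. The peaks in both replicates numbered 15 (5.28%, interval 2.99 to 8.56), against 4.64% of all, and 141 were in neither (49.6%, interval 43.7 to 55.6), against 49.7% of all. Those found in replicate 1 only numbered 122, and those in replicate 2 only numbered 6. The share found in replicate 1 on V minus that on II was −4.41 points (interval −12.5 to 3.799; adjusted p = 0.538 by a Fisher's exact test, two-sided). Against III it was −6.93 points (interval −15.2 to 1.46, adjusted exact p = 0.367), and against IV −6.05 points (interval −14.4 to 2.48, adjusted exact p = 0.458). None of these passed.

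Seen from the replicates, 137 of the 167 replicate 1 peaks on V (82.0%, interval 75.4 to 87.5) and 21 of the 27 replicate 2 peaks (77.8%, interval 57.7 to 91.4) overlapped a combined peak. Of the 27 replicate 2 peaks, 15 overlapped replicate 1 (55.6%, interval 35.3 to 74.5). In the other direction those were 15 of the 167 replicate 1 peaks (8.98%, interval 5.11 to 14.4).

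The share found in replicate 1 was higher in the centre, among stronger peaks and among wider ones. In the centre 69 of 119 combined peaks overlapped replicate 1 (58.0%, interval 48.6 to 67.0), on the left arm 40 of 92 (43.5%, interval 33.2 to 54.2) and on the right arm 28 of 73 (38.4%, interval 27.2 to 50.5). For replicate 2 the centre did not stand above the left arm, with 10 of 119 (8.40%, interval 4.10 to 14.9) against 8 of 92 (8.70%, interval 3.83 to 16.4), and the right arm had 3 of 73 (4.11%, interval 0.86 to 11.5). Of the 71 combined peaks with the lowest q, 62 overlapped replicate 1 (87.3%) and 16 replicate 2 (22.5%). Of the 71 with the highest q, 12 overlapped replicate 1 (16.9%) and 1 replicate 2 (1.41%). Combined and replicate peaks come from the same ChIP libraries, so their q-values are not independent, and these shares are a description.

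Width showed the same order. Replicate 1 was overlapped by 9 of 73 peaks under 50 bp (12.3%), 41 of 108 peaks of 50 to under 200 bp (38.0%), 66 of 79 peaks of 200 to under 400 bp (83.5%) and 21 of 24 peaks of 400 bp or more (87.5%). No peak under 50 bp overlapped replicate 2. A wide peak meets an overlap of 1 bp more easily.

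**Figure D3:**
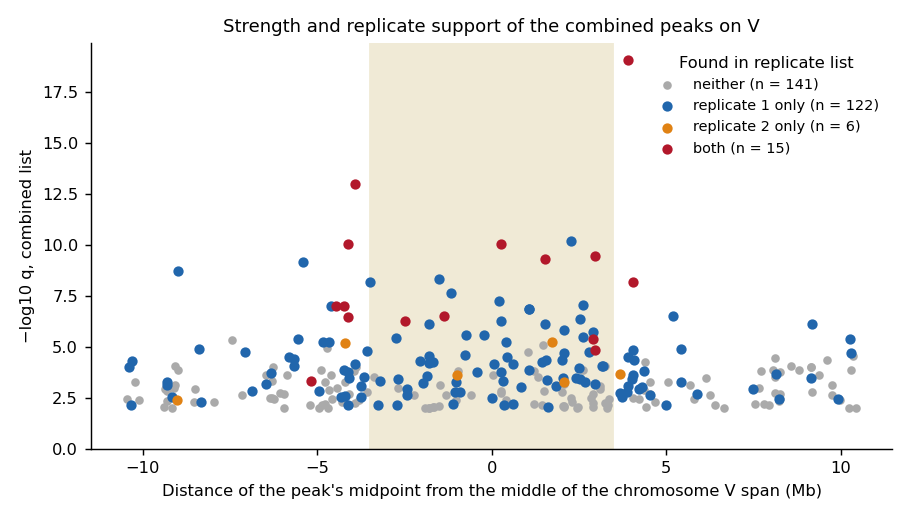
The −log10 q of each of the 284 combined peaks on V (vertical axis) by the distance of its midpoint from the middle of the span in Mb (horizontal axis). Colour gives the replicate lists in which the peak was found, and the shaded band is the central 33.3% of the span. The 15 peaks in both replicates all start between 5283992 and 14505873, and the highest point, at 19.0, lies just right of the band.

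The median width on V was 142 bp in the combined list (quartiles 47.8 to 262), 195 bp in replicate 1 (quartiles 100.0 to 283) and 64 bp in replicate 2 (quartiles 25.5 to 180). The narrowest combined peak was 2 bp and the widest 1759 bp. Peaks of 10 bp or less numbered 24 in the combined list. Peaks under 50 bp were 73 of 284 in the combined list (25.7%), 28 of 167 in replicate 1 (16.8%) and 11 of 27 in replicate 2 (40.7%). For the 15 peaks in both replicates the median was 368 bp, and the narrowest was 208 bp. For the 141 in neither it was 56 bp, with 64 (45.4%) under 50 bp.

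The 3 widest combined peaks differed in support. The widest, at 5283992 to 5285750 (1759 bp), was in both replicates. The second, at 18719504 to 18720305 (802 bp, q = 0.00353), was in neither. The third, at 7727979 to 7728734 (756 bp, q = 3.87e-06), was in replicate 1 only.

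**Figure D4:**
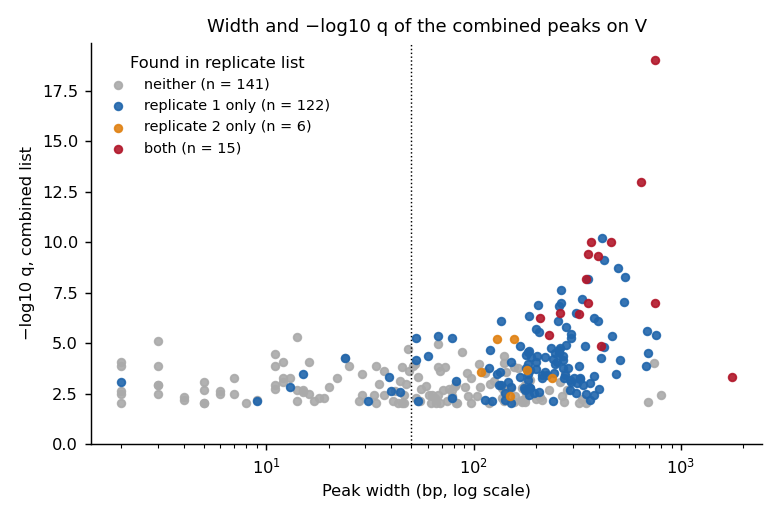
Width of each combined peak on V in bp (horizontal axis, log scale) and its −log10 q (vertical axis), coloured by the replicate lists in which it was found. The dotted line marks 50 bp. Peaks in neither replicate fill the left side, and the 15 in both are all at least 208 bp wide.

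Among the 284 peaks, 45 had a q below 1e-05 (15.8%, against 18.3% of all combined peaks). Of these 45, 41 overlapped replicate 1 and 15 replicate 2, against 48.2% and 7.39% of all 284. The 45 were 26 of the 119 peaks in the centre, 14 of the 92 on the left arm and 5 of the 73 on the right arm. At the other end, 125 peaks had a q of 0.001 or more, and 30 of them overlapped replicate 1. The median −log10 q on V was 3.28, beside 3.18 on II, 3.37 on III and 3.10 on IV.

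The 20 strongest peaks on V all overlapped replicate 1, and 9 of them overlapped replicate 2, against 48.2% and 7.39% of all 284. They were picked by a q-value that comes from the same libraries as the replicate lists, so this overlap is a description. In the centre, which held 41.9% of all 284 peaks, lay 10 of the 20. None of the 20 was under 50 bp. They included 12 of the 100 strongest peaks of the whole combined list, of which V held 15.3% of all peaks. Among replicate 1 peaks on V, 16 of the 20 had a match ranked in the first 20.

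The strongest peak on V lay on the right arm at 14366344 to 14367092 (749 bp), rank 14 of the whole combined list. Its −log10 q was 19.0 in the combined list, 15.6 in replicate 1 (14366407 to 14367065) and 2.56 in replicate 2 (14366736 to 14366851). It led replicate 1 on V but stood only at rank 12 of the 27 replicate 2 peaks. The second, on the left arm at 6541597 to 6542240 (644 bp), had a −log10 q of 12.97, 9.46 and 2.57 in the 3 lists. It ranked 2 in replicate 1 and 11 in replicate 2.

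The third peak, in the centre at 12736189 to 12736605, had a −log10 q of 10.2 in the combined list and 9.18 in replicate 1, where it also had rank 3, and was not in replicate 2. It was the strongest combined peak on V that replicate 2 lacked. The fourth, at 10717089 to 10717547, had a −log10 q of 10.0, 6.69 and 2.63 in the combined, replicate 1 and replicate 2 lists. The fifth, at 6354225 to 6354592, had 10.0, 7.76 and 3.25, and it was the third strongest in replicate 2. The sixth, at 13413325 to 13413680, had 9.44, 6.86 and 2.32, and the seventh, at 11979891 to 11980289, had 9.31, 7.62 and 2.89. In all of these the combined value was above the replicate 1 value, and the replicate 2 value, where present, was the lowest.

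Ranks 8 to 10 were found in replicate 1 and not in replicate 2. They lay at 5049327 to 5049751 (−log10 q of 9.15 combined and 6.47 in replicate 1), 1474434 to 1474929 (8.72 and 7.97) and 8936172 to 8936705 (8.31 and 6.08). The peak starting at 1474434 was the only 1 of the 20 in the outer 5 Mb on the left, and none of the 20 lay right of 15000000. Rank 11, at 14505873 to 14506220, was in both replicates (8.18 combined, 5.34 in replicate 1 and 2.19 in replicate 2). Ranks 17 and 18 were in both as well, at 6227379 to 6228130 and 6000295 to 6000649, both in the fullest bin. Their −log10 q was 6.9998 and 6.99 in the combined list, 6.02 and 4.77 in replicate 1, and 2.08 and 2.31 in replicate 2. The 3 of them thus had a replicate 2 value close to the limit of that list, which holds no q above 0.01. Ranks 12 to 16, starting at 6970053, 9287583, 10681184, 13085970 and 5845795, were in replicate 1 only, with a combined −log10 q between 7.01 and 8.16 and a replicate 1 value between 3.91 and 5.78. Ranks 19 and 20 were neighbours, at 11532194 to 11532398 and 11532967 to 11533225, and the latter was the only peak of the 20 with a higher −log10 q in replicate 1 (6.92) than in the combined list (6.84).

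**Figure D5:**
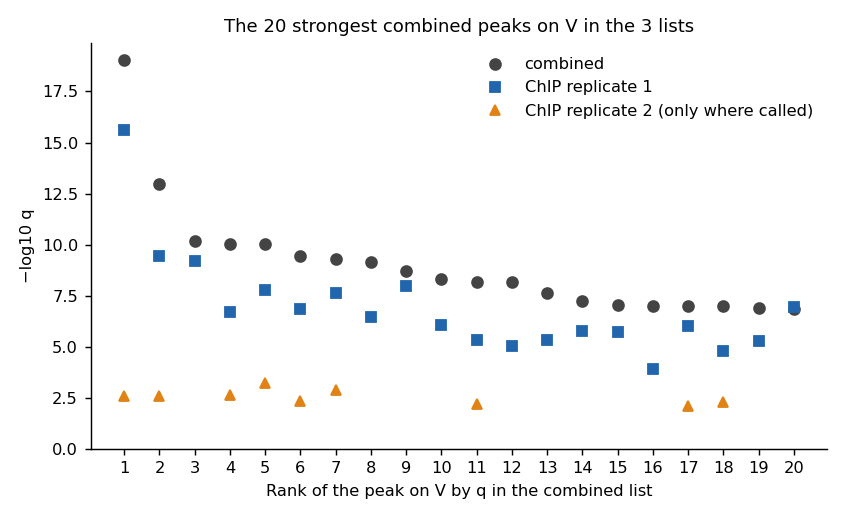
The −log10 q (vertical axis) of the 20 strongest combined peaks on V, ordered by rank, in the combined list (circles), ChIP replicate 1 (squares) and ChIP replicate 2 (triangles, shown only for the 9 peaks found there). Replicate 2 values lie between 2.08 and 3.25 while replicate 1 values run from 3.91 to 15.6.

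Beyond those 9, the peaks in both replicates were at 9095726 to 9095987, 6351068 to 6351388, 7978869 to 7979076, 13374628 to 13374858, 13414651 to 13415060 and 5283992 to 5285750. In the order listed, −log10 q in the combined list, replicate 1 and replicate 2 was 6.49, 3.42 and 2.09 for the first. It was 6.43, 3.82 and 2.07 for the second and 6.26, 3.56 and 2.57 for the third. For the fourth it was 5.39, 2.33 and 2.33, and for the fifth 4.86, 3.39 and 2.14. These 5 had higher values in the combined list than in either replicate. Across all 15, −log10 q had a median of 6.9998 in the combined list (3.32 to 19.0), 5.34 in replicate 1 (2.33 to 15.6) and 2.33 in replicate 2 (2.07 to 7.53). Their median width was 368, 342 and 161 bp in the 3 lists.

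The peak at 5283992 to 5285750 stood apart from the other 14. It was the widest on V in all 3 lists once the peak over 100000 bp was left out, with 1759 bp in the combined list, 1755 bp in replicate 1 and 1730 bp in replicate 2, and its bounds agreed to within 25 bp. Its −log10 q was 3.32 in the combined list, where it had rank 131 on V, and 3.07 in replicate 1, where it had rank 68. In replicate 2 it was 7.53, the strongest of the 27. Without it, the replicate 2 values of the peaks in both ran only from 2.07 to 3.25. It was 1 of 2 combined peaks with a lower −log10 q than their replicate 2 match, the other being at 1427387 to 1427536 (2.40 against 2.56).

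Among the 6 combined peaks found in replicate 2 only, the median width was 153 bp. They lay at 12198672 to 12198801 (q = 6.05e-06), 6240793 to 6240948 (q = 6.41e-06), 14135676 to 14135855 (q = 0.000212), 9453596 to 9453703 (q = 0.000255), 12534952 to 12535189 (q = 0.000513) and 1427387 to 1427536 (q = 0.00394). In replicate 2 their q was 0.00114, 0.00128, 0.00827, 0.00858, 0.00222 and 0.00275 in that order. Only the first 2 had a q below 1e-05 in the combined list.

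Where a combined peak and a replicate 1 peak matched, which was 1 to 1 for all 137, their bounds were close. The starts differed by a median of 17 bp (quartiles 6 to 42) and the ends by a median of 13 bp (quartiles 3 to 43). The combined peak was wider in 94 of 137 and contained the whole replicate 1 peak in 66. Its −log10 q was higher in 114 of 137, by a median of 0.98 over all (quartiles 0.26 to 1.60).

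The largest fall was at a peak starting at 10715700, near the fourth strongest peak, from 7.67 in replicate 1 to 6.25 in the combined list. For the 21 matches with replicate 2, starts differed by a median of 110 bp and ends by 97 bp, and 19 of the 21 replicate 2 peaks lay wholly inside the combined peak. The combined peak was a median of 2.46 times as wide as the replicate 2 peak, and 1.09 times as wide as the replicate 1 peak.

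Replicate peaks with no combined peak were narrower than those with a match. For the 30 from replicate 1 the median width was 35 bp and the median −log10 q 2.37, against 213 bp and 3.03 for the 137 with a match. They lay a median of 15504 bp from the nearest combined peak. The strongest 5 were at 12209210 to 12209215 (q = 0.000298), 13376729 to 13376912 (q = 0.000620), 10332267 to 10332437 (q = 0.00128), 4692715 to 4692725 (q = 0.00165) and 6044154 to 6044176 (q = 0.00185). From replicate 2 there were 6, with a median width of 22.5 bp, against 140 bp for the 21 with a match, and 5 were under 50 bp. Their median −log10 q was 2.40 (quartiles 2.31 to 2.81), against 2.56 (quartiles 2.14 to 2.65), so their strengths overlapped those of matched peaks.

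The strongest of those 6, at 11783244 to 11783279 (q = 0.000394), was the second strongest replicate 2 peak on V and lay 120 bp from a combined peak. The next 4 were at 10750541 to 10750647 (q = 0.00123), 6243617 to 6243644 (q = 0.00323), 9174341 to 9174357 (q = 0.00482) and 10545549 to 10545553 (q = 0.00498). These 5 thus had a q between 0.000394 and 0.00498.

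Spacing on V was wide with some close neighbours. The 283 gaps between neighbouring combined peaks had a median of 34693 bp (quartiles 6452 to 112474), the shortest being 216 bp. The median was 29136 bp in the centre, 40913 bp on the left arm and 48557 bp on the right arm. The median gap was 21171 bp on II, 31433 bp on III and 32440 bp on IV. In replicate 1 the median gap on V was 63677 bp, and in replicate 2 it was 222726 bp.

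Gaps of up to 1000 bp numbered 25 of 283 on V (8.83%), 28 of 282 on II (9.93%), 19 of 260 on III (7.31%) and 6 of 244 on IV (2.46%). Gaps of up to 10000 bp made up 29.7% on V. In replicate 1, 9 of 166 gaps on V (5.42%) were up to 1000 bp. These shares were not tested between chromosomes.

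The 5 longest gaps without a combined peak were from 17123053 to 17951284 (828 kb), 337419 to 1055973 (719 kb), 2486787 to 3013665 (527 kb), 7248218 to 7727978 (480 kb) and 1474930 to 1929880 (455 kb). Replicate 1 had 1 peak in the first and 1 in the third, and replicate 2 had none in any of the 5. The fourth was the only 1 of them in the central part.

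Joining peaks across gaps of up to 1000 bp turned the 284 peaks into 259 regions, of which 239 were single peaks, 17 held 2 and 3 held more. The 20 regions with 2 or more held 45 peaks (15.8%). In the centre, which held 40.9% of all 259 regions, lay 12 of the 20. The median length of the 20 was 1013 bp. At least 1 peak overlapped replicate 1 in 14 of the 20 and replicate 2 in 5. Of all 259 regions, single peaks included, 128 overlapped replicate 1 (49.4%), and of all 284 peaks 7.39% overlapped replicate 2. A region with more peaks meets such a condition more easily, so these counts do not show better support for the 20.

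The region with the most peaks, at 6352462 to 6355666, lay in the fullest bin and held 5 peaks in 3205 bp, of which 749 bp were covered. Its centre was the fifth strongest peak on V, at 6354225 to 6354592, in both replicates. To its left were peaks of 179 bp (−log10 q of 3.78) and 113 bp (2.16), both in replicate 1. To its right were a peak of 74 bp (2.15), in neither, and 1 of 15 bp (3.46), in replicate 1. The region thus held 1 strong peak flanked by 4 weaker ones. A further peak in both replicates, at 6351068 to 6351388, lay just left of it.

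The region at 13374031 to 13375963 had the same form with 3 peaks. Its middle peak, at 13374628 to 13374858, was in both replicates, with a −log10 q of 5.39 in the combined list, 2.33 in replicate 1 and 2.33 in replicate 2. Its neighbours, of 71 and 177 bp, had 2.70 and 2.07 and were in neither. The third region, at 18717698 to 18720305, held no strong peak, and none of its 3 peaks was in a replicate. They were 163, 282 and 802 bp wide, with a −log10 q of 3.75, 2.69 and 2.45, and they covered 1247 bp of 2608 bp, in the sparsely supported bin from 18000001 to 19000000.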

How the data were processed

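The members and comparisons described here were chosen with earlier results of these data known. The authors deposited 3 peak lists, 1 for each ChIP replicate and 1 combined. Per the file headers, positions are on WormBase WS220, and the deposited lines name PeakSeq as the caller. The authors' value is a q-value for each peak, all below 0.01. The aligner, the caller's settings, the read depth and the way replicates were combined were not given in the sources used here.

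Peaks were taken with both end positions included, and the deposited q-values were turned into −log10 q. Overlap needed at least 1 bp. The central 33.3% of a chromosome was set by the midpoints of peaks on a span from 1 to the last peak of any list. Exact binomial and Fisher's exact tests were two-sided and treat peaks as independent. The p-values were adjusted by the Benjamini-Hochberg method, over 3 lists for the central share and over 12 comparisons between chromosomes. Intervals are 95% exact (Clopper-Pearson) for shares and density ratios and Newcombe's for differences of shares. They cover counting error only, and p-values measure the spread expected of peak counts, not that between animals.

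Named were the 20 peaks on V with the lowest q, all peaks in both replicates, regions of 3 or more peaks, the 3 widest peaks, the 5 longest gaps, up to 5 unmatched peaks of each replicate and the fullest and emptiest bins. Other peaks were chosen after their values were seen. Alternatives changed the overlap, width limit, strength, list, span and merging. The overlap, the merging and the binomial tests of central share and density were tried on simulated lists first. Those lists held independent peaks, and the Fisher's exact tests were not tried on them. Python 3.11.15, NumPy 2.4.6, SciPy 1.17.1, pandas 2.3.3 and Matplotlib 3.10.9 were used.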

Additional observations from a re-analysis of the deposited data

Results flagged for a closer look

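The replicate 2 peak that was left out of the comparison ran from 20748394 to 20924161 at the right end of V, 175768 bp, with a −log10 q of 31.3, the second strongest of the whole replicate 2 list. It was looked at again because it is a called signal outside the comparisons above. It made up 97.6% of all bases that replicate 2 peaks covered on V. The combined list had 3 peaks within it, at 20761747 to 20762005 (q = 2.06e-05), 20830301 to 20830388 (q = 2.85e-05) and 20905815 to 20905816 (q = 0.00961), and replicate 1 had 1, at 20761819 to 20761952 (q = 0.00129). With the wide peak left out, the first of those 3 combined peaks overlapped replicate 1 only and the others neither list. With the wide peak kept, 24 instead of 21 combined peaks on V overlapped replicate 2.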

How the results depend on the processing

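Of 84 alternative values computed for the results on V, 75 stayed on the same side of the threshold of 0.05 with an unchanged direction (for counts, within 1.5 times), and 9 did not. Size was not judged for tested values, and differences in the small replicate 2 list could be far larger. The central share of peaks on V was 47.9% in replicate 1 alone and 51.9% in replicate 2 alone, and only the latter did not pass (27 peaks, exact adjusted p = 0.0635). The density ratio of V to II was 0.75 with the stronger 50% of the list (exact adjusted p = 0.0845) and 0.61 to 0.86 in the single replicate lists, and that of V to III was 0.62 to 0.85. In both cases the replicate 2 list did not pass. The central share on V exceeded that on III by 11.2 points once neighbours were merged, and that on IV by 14.2 to 22.7 points in the single replicate lists. Both differences missed the threshold in the report and passed here, the latter in replicate 1 only (exact adjusted p = 0.0463 and 0.0403). For each of them the other 4 of 5 alternatives did not pass. The density ratio of V to IV, which did not pass, turned to 1.15 with the stronger 50% of the list, and the difference in short peaks from II, which did not pass, ran from −1.14 to 5.96 points in the single replicate lists. Of the 211 peaks of 50 bp or more, 77 were in neither replicate (36.5%, against 49.6% of all 284), since 64 of the 73 shorter peaks were in neither. The cause of the other changes was not tested. No paired analysis was possible because only the ChIP libraries have a peak list, which leaves no second group to block on. The unknown read depth limits what a missing peak shows, above all in replicate 2.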

Other observations

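The 7 combined peaks on V with the lowest q among those in neither replicate, picked after their values were seen, were 3 to 140 bp wide. They were led by those at 3013666 to 3013679 (14 bp, q = 4.78e-06), 11939227 to 11939229 (3 bp, q = 7.99e-06) and 5731629 to 5731695 (67 bp, q = 1.13e-05). The others started at 11490559, 20830301, 18589631 and 20062698, with widths of 48, 88, 11 and 140 bp and a −log10 q between 4.35 and 4.73. The peak starting at 20830301 lies inside the replicate 2 peak over 100000 bp wide, and counts as in neither replicate only with that peak left out.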
